A study of Mus musculus with 12 samples.

Results

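The nuclear genes of the mitochondrial respiratory chain and of ATP synthase were examined on 12 Affymetrix GeneChip arrays of sorted mouse blood cells. They were taken by name: all genes with a probe set annotated to that gene alone whose symbol begins with Ndufa, Ndufb, Ndufc, Ndufs, Ndufv, Sdha, Sdhb, Sdhc, Sdhd, Uqcr, Cyc1, Cox4i, Cox5, Cox6, Cox7, Cox8 or Atp5. This gave 95 of the 18193 genes measured, each read from the brightest of its probe sets, on the log2 scale of the deposited intensity. Of the 95, 36 are listed with complex I, 4 with complex II, 9 with complex III, 17 with complex IV and 17 with complex V (ATP synthase), and 12 are assembly factors that the same name roots catch. Ndufa4l2, a relative of Ndufa4, and Cox7a2l, a factor that joins complexes into supercomplexes, are kept with complexes I and IV but are not counted among the 81 subunits. Cox7b was not analysed here, and Ndufa11 and Ndufs6 had probe sets with several gene symbols only.

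All cells came from C57Bl/6 mice aged 10 to 12 weeks, with no treatment or engineered allele in the labels. The populations were mature CD4+ T cells from spleen, sorted as CD4+ CD8- B220- Nk1.1- (2 arrays), and 3 progenitor populations from bone marrow. PreMegE, a progenitor of megakaryocytes and red cells, was sorted as lineage- Kit+ Sca1- CD150+ CD105- CD41- (4 arrays). The description of its replicate 4 names replicate 3. With both averaged as 1 sample, 36 and 37 of the 95 genes were called over HSC and MPP in place of 37 and 38. Matching counts over all genes are not given for that setting. The median difference of CD4+ T cells over PreMegE then moved to 0.053, against 0.10 with both counted. Multipotent progenitors (MPP) were Kit+ Sca1+ CD150- Flt3+ (3 arrays), and haematopoietic stem cells (HSC) were Kit+ Sca1+ CD150+ Flt3- (3 arrays), both from the lineage- fraction. The HSC and MPP arrays were made here, while the PreMegE and CD4+ T cell arrays were taken over from 2 earlier studies, so that study and population cannot be told apart in any comparison other than MPP over HSC. The labels do not say whether replicates were separate mice, so each p-value reflects only how far these samples spread, which may be technical. HSC replicates 2 and 3 differed from replicate 1 in Y-linked and Xist signal (below), so the HSC replicates did not all share 1 source.

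Complexes I and II feed electrons from NADH and succinate into coenzyme Q, complex III passes them to cytochrome c, complex IV hands them to oxygen, and the proton gradient built on the way drives ATP synthase. Most subunits are encoded in the nucleus, whereas a few of the most hydrophobic ones are made from mitochondrial DNA and were not analysed here. Haematopoietic stem cells are known for relying on glycolysis more than their progeny do, and several subunits of complex IV and of ATP synthase exist as alternative gene copies used in different tissues. The arrays report RNA per total RNA, not protein, activity or mitochondrial number, and a lower level cannot be told apart from fewer expressing cells.

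Single markers of the sorted identities were visible, but not every marker list set its population apart. The mean over 8 megakaryocyte and erythroid markers was 8.59 to 9.13 in PreMegE and 8.69 to 8.83 in HSC. Over 5 MPP markers it was 9.24 to 9.29 in MPP and 9.27 and 9.49 in CD4+ T cells. Over 6 HSC markers it was 8.20 to 8.48 in HSC, against 6.97 to 7.17 in MPP and at most 4.64 elsewhere. Cd4 was at 9.11 and 9.49 (log2 intensity) on the CD4+ T cell arrays against at most 5.13 elsewhere, and Flt3 at 9.95 to 10.10 in MPP against 6.34 to 6.82 in HSC. Gata1 was highest on the PreMegE arrays (10.48 to 10.96), but HSC was close at 9.35 to 9.65. Slamf1, the CD150 gene, set only MPP apart (3.53 to 3.86). It was at 6.67 to 7.05 in HSC, 6.58 to 7.02 in PreMegE and 7.25 and 7.07 in CD4+ T cells. HSC replicates 2 and 3 stood apart from the other 10 arrays: they carried the Y-linked transcript Eif2s3y at 7.46 and 8.47, against at most 2.71 elsewhere, and Xist at 2.45 and 2.59, against at least 10.91 elsewhere. HSC replicate 2 also had the neutrophil granule gene Ngp at 11.01, against 7.84 to 8.20 on the other HSC arrays, and the mean over 7 neutrophil markers ran from 3.63 to 4.04 in CD4+ T cells, 6.05 to 7.69 in PreMegE, 3.998 to 4.85 in MPP and 5.27 to 8.48 in HSC. No array of the other populations had the Y-linked signal, so it cannot be told apart from population for these 2 arrays, MPP over HSC included. Median differences against HSC are therefore given with and without replicates 2 and 3, and single genes in part with all HSC arrays only. The excess of 3' over 5' signal, a sign of RNA integrity, also moved with population. The 3' probe set of beta-actin exceeded its 5' probe set, on the log2 scale, by 0.99 and 1.13 in CD4+ T cells. The excess was 3.49 to 4.65 in PreMegE, 2.35 to 2.68 in MPP and 2.42 to 2.77 in HSC. For Gapdh it was 2.55 and 2.66 in CD4+ T cells, 3.12 to 4.39 in PreMegE, 3.62 to 3.88 in MPP and 3.86 to 4.14 in HSC. PreMegE thus stood apart for beta-actin but overlapped with MPP and HSC for Gapdh. Markers of other cells were also higher on the CD4+ T cell arrays: the mean over 3 late erythroid markers was 5.49 and 7.03, against 3.03 to 3.28 in PreMegE, 3.13 to 3.66 in MPP and 3.05 to 5.15 in HSC. Over 4 B cell markers it was 5.47 and 5.48, against 3.60 to 4.38 elsewhere, and over 4 NK cell markers 5.77 and 6.03, against 3.34 to 3.88 elsewhere. The part of RNA integrity and of these transcripts in the results was not tested.

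Across the 4 populations the 95 genes varied about as much as other genes, and no population had the whole set high or low. The span between the highest and the lowest population mean had a median of 0.76 on the log2 scale over the 95 genes and 0.64 over all genes, and it reached 2-fold for 28 of the 95 (29.5%) against 35.2% of all genes. The highest mean lay in CD4+ T cells for 43 genes, in PreMegE for 19, in MPP for 23 and in HSC for 10. The lowest mean lay in CD4+ T cells for 21 genes, in PreMegE for 22, in MPP for 20 and in HSC for 32. A gene was called at a Benjamini-Hochberg adjusted p under 0.05 in limma over all 18193 genes. By that rule 27 of the 95 were called in 0 of the 6 pairwise comparisons and 0 were called in all 6. Matching shares over all genes were not computed for these counts or for the highest and lowest means. They are therefore not read as particular to the set. Ndufb4, Cox7a1 and Cox7b2 lay below the lower quartile of all genes in every population, and they were among the 27.

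**Figure D1:**
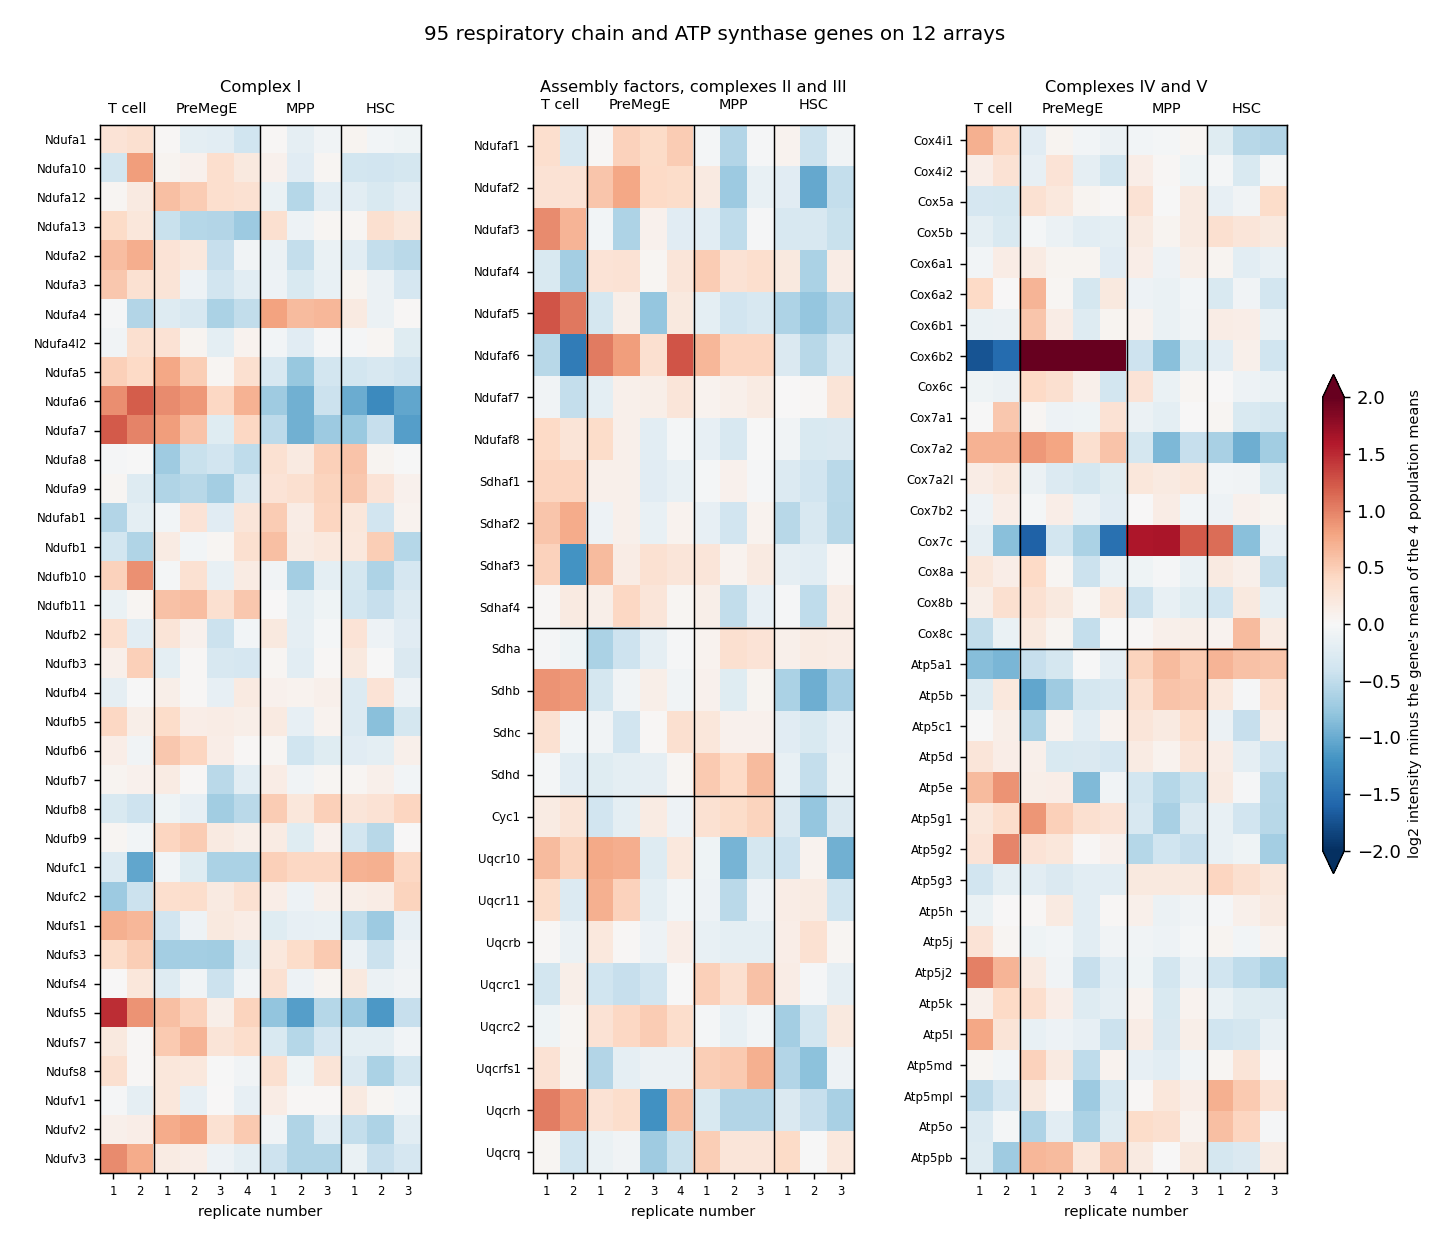
Log2 intensity of each of the 95 genes (rows) on each of the 12 arrays (columns), minus the gene's mean of the 4 population means; red is above and blue below that mean, and colours stop at 2 log2 units either way. Cox6b2 in PreMegE and Cox7c in MPP are the darkest red blocks, and most rows mix populations that are high and low rather than showing 1 population high throughout.

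In MPP, 9 of the 95 genes rose over HSC and 0 fell in limma (1 fell at an unadjusted p under 0.05), while 11.3% of all genes were called in either direction, 6.38% higher and 4.93% lower. The 9 were Cox7c, Uqcrfs1, Ndufaf6, Cyc1, Sdhd, Sdhb, Ndufa4, Ndufs8 and Ndufs3, and their share, 9.47%, was close to the background. The median difference of the 95 was 0.11 on the log2 scale, against -0.03 for all genes, and it was 0.036 without HSC replicates 2 and 3. With 1 array left out it was 0.17 (MPP replicate 2), 0.053 (MPP replicate 1), 0.060 (MPP replicate 3) and 0.064 (HSC replicate 2). Of the 9, Uqcrfs1 and Cyc1 belong to complex III and Sdhb and Sdhd to complex II. The others are listed with complex I, complex IV and the assembly factors.

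Uqcrfs1, the Rieske iron-sulphur protein of complex III, was at 10.59, 10.61 and 10.81 in MPP, against 9.50, 9.27 and 10.00 in HSC. All 3 MPP arrays lay above all 3 HSC arrays, and the difference was 1.08 ± 0.19 (SE) on the log2 scale (limma, adjusted p = 0.00144). Cyc1, the cytochrome c1 of the same complex, was at 10.75, 10.81 and 10.89 in MPP, against 10.15, 9.66 and 10.16 in HSC, again without overlap (0.82 ± 0.17, adjusted p = 0.00518). The core proteins of complex III were not called between these populations: Uqcrc1 differed by 0.47 and Uqcrc2 by 0.21, so complex III as a whole had 2 of 9 genes called. Its median of 0.13 was 0.032 with quantile normalisation, 0.021 with cyclic loess and -0.042 without HSC replicates 2 and 3.

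In complex II, Sdhb, which holds the iron-sulphur clusters, was at 9.54, 9.20 and 9.50 in MPP, against 8.81, 8.47 and 8.79 in HSC (0.72 ± 0.16, limma adjusted p = 0.00831). Sdhd, a membrane anchor, was at 9.22, 9.10 and 9.32 in MPP, against 8.54, 8.21 and 8.57 in HSC (0.77 ± 0.15, adjusted p = 0.00297). Neither gene's arrays overlapped between the populations, and on the next brightest probe set of Sdhd the difference was 0.37 (adjusted p = 0.261). The flavoprotein gene Sdha differed by 0.08 and the second anchor gene Sdhc by 0.37, neither of them called.

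Of complex I, 3 of 36 genes rose in MPP. Ndufs3 and Ndufs8 belong to the core of the matrix arm and rose by 0.57 ± 0.16 (limma, adjusted p = 0.0334) and 0.60 ± 0.17 (adjusted p = 0.0288), and Ndufa4, a subunit now placed in complex IV, by 0.68 ± 0.17 (adjusted p = 0.0167). The core genes Ndufs1, Ndufs7, Ndufv1 and Ndufv2 were not called. Ndufaf6, a complex I assembly factor, was at 6.54, 6.31 and 6.31 in MPP, against 5.59, 5.32 and 5.56 in HSC (0.90 ± 0.24, adjusted p = 0.0225), and was the 1 called of 12 assembly factors. Among 17 complex IV genes Cox7c alone was called, and among 17 genes of ATP synthase 0 were called by limma and 0 passed an unadjusted p under 0.05.

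Cox7c had the largest difference and the widest spread: 8.35, 8.35 and 7.96 in MPP, against 7.85, 5.89 and 6.56 in HSC (1.45 ± 0.41, limma adjusted p = 0.0319). HSC replicate 1 lay just below the lowest MPP array and the other HSC arrays far below, and without HSC replicate 2 the difference was 1.02 (adjusted p = 0.162). Without HSC replicates 2 and 3, only the call of Uqcrfs1 (1.17) remained of the 9, and fewer of all genes were called. The 1 HSC array left was assumed to vary like the other groups. The other differences kept their sign there, at 0.37 for Cox7c, 0.67 for Cyc1, 0.67 for Sdhd and 0.60 for Sdhb. Leaving out single arrays gave 4 calls for HSC replicate 2, 5 for MPP replicate 1 and 4 for MPP replicate 3. Of all 18193 genes, 1477, 1401 and 1280 were called in these settings.

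**Figure D2:**
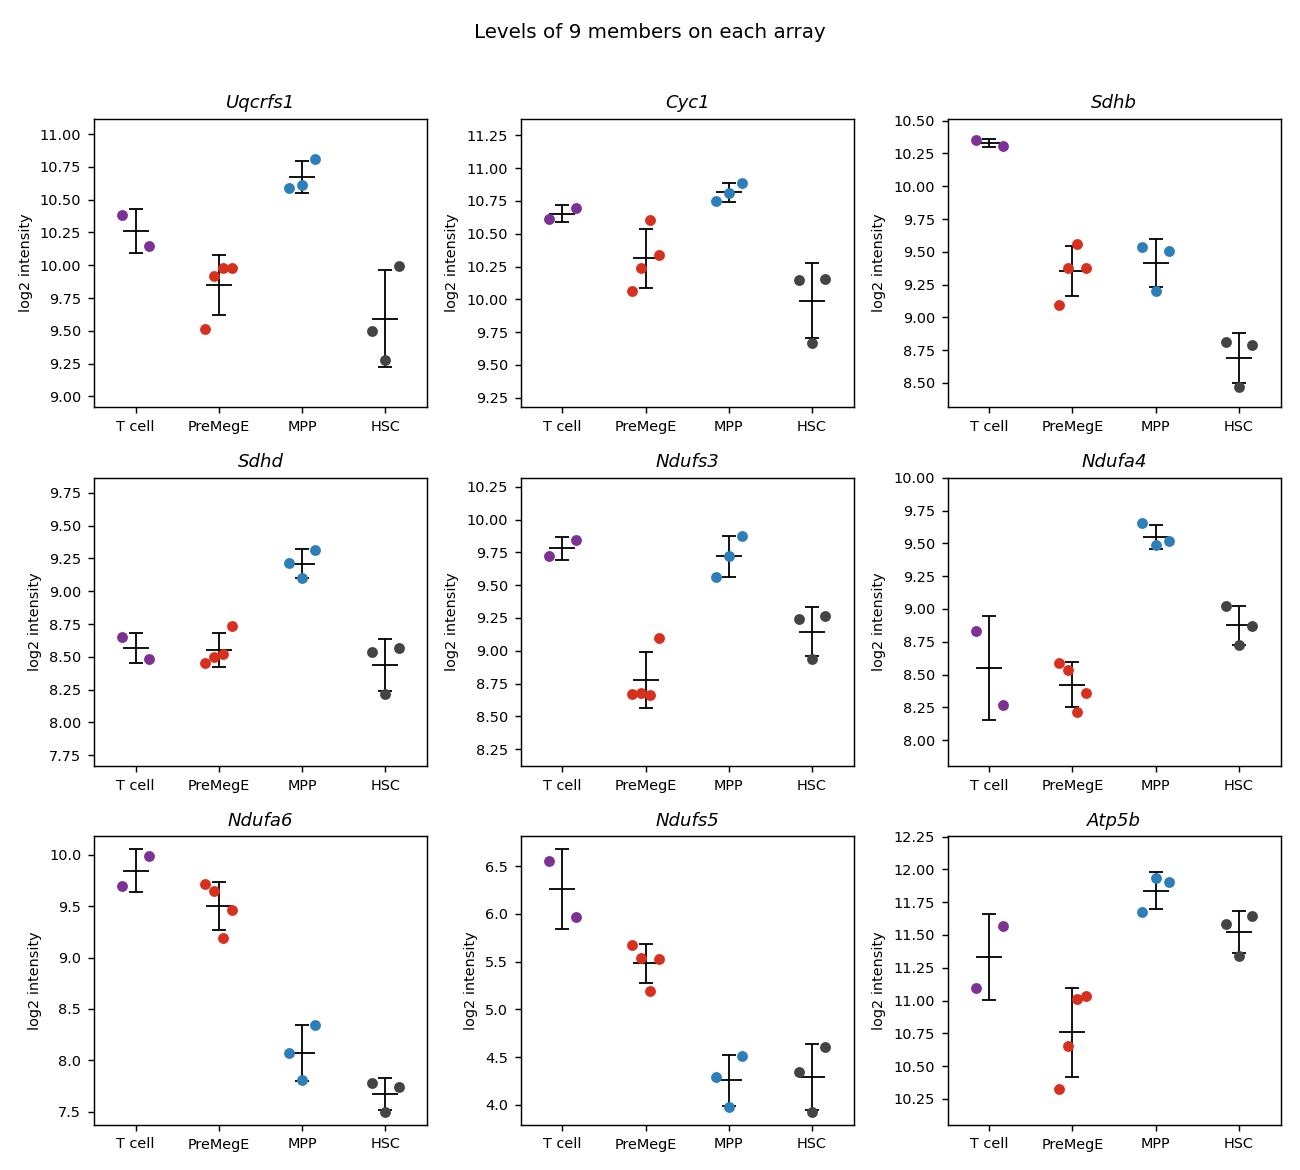
Log2 intensity of 9 of the genes on each array; each point is 1 array, and the bars give the mean and SD of each population (2 CD4+ T cell, 4 PreMegE, 3 MPP and 3 HSC arrays). Uqcrfs1, Cyc1, Sdhd and Ndufa4, each on its brightest probe set, are highest in MPP, Sdhb is highest in CD4+ T cells and lowest in HSC, Ndufa6 and Ndufs5 are high in CD4+ T cells and PreMegE, and Atp5b is lowest in PreMegE.

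PreMegE differed from both stem and multipotent cells in genes that rose and genes that fell, with calls in both directions in complexes I, III, IV and V over each of them. Over HSC, 22 of the 95 rose and 15 fell, where 28.9% of all genes were called, 11.9% higher and 17.0% lower. Over MPP, 19 rose and 19 fell, where 33.0% of all genes were called, 13.5% higher and 19.5% lower. The members called made up 38.9% and 40.0% of the 95, against those backgrounds, and the median difference was 0.16 over HSC and 0.05 over MPP, against -0.01 and 0.02 for all genes. Over MPP it was -0.037 without MPP replicate 2, -0.035 and -0.023 without PreMegE replicates 1 and 2, 0.021 without MPP replicate 3, and 0.073 and 0.070 without MPP replicate 1 and PreMegE replicate 3. These comparisons share the PreMegE arrays, so their values are given side by side.

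The gene that stood furthest apart in PreMegE was Cox6b2, an isoform of the complex IV subunit VIb known from testis. It was at 7.39, 7.50, 7.06 and 7.49 in PreMegE, against 3.32 and 3.49 in CD4+ T cells, 4.62, 4.21 and 4.74 in MPP, and 4.83, 5.15 and 4.64 in HSC. All PreMegE arrays lay above all other arrays, and the difference was 2.49 ± 0.17 over HSC (limma, adjusted p = 5.1e-08) and 2.84 ± 0.17 over MPP (adjusted p = 5.96e-09). The common isoform gene Cox6b1 was not called in any of the 6 comparisons, with means of 11.64 in CD4+ T cells, 11.88 in PreMegE, 11.71 in MPP and 11.81 in HSC.

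The complex I genes that rose in PreMegE included some of the matrix arm, where NADH is oxidised, and some of the membrane arm. They were not counted by arm here. Ndufa6 was at 9.71, 9.65, 9.19 and 9.46 in PreMegE, against 8.07, 7.81 and 8.34 in MPP and 7.78, 7.50 and 7.74 in HSC, a difference of 1.83 ± 0.17 over HSC (limma, adjusted p = 1e-06) and 1.43 ± 0.17 over MPP (adjusted p = 7.84e-06). Ndufa7, Ndufa5 and Ndufa12, like Ndufa6 accessory genes of the matrix arm, rose by 1.16, 0.77 and 0.68 over HSC and by 1.13, 0.88 and 0.74 over MPP. The core genes Ndufv2 and Ndufs7 rose by 1.03 and 0.60 over HSC and by 0.89 and 0.85 over MPP, although the next brightest probe set of Ndufs7 gave 0.061 and -0.029. In the membrane arm, Ndufs5 was at 5.67, 5.54, 5.19 and 5.52 in PreMegE, against 4.29, 3.97 and 4.51 in MPP and 4.35, 3.93 and 4.61 in HSC, again clear of both (1.19 ± 0.20 over HSC, adjusted p = 0.00029).

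Other complex I genes, again of both arms, fell in the same cells. Ndufa9, of the matrix arm, was at 9.23, 9.27, 9.15 and 9.51 in PreMegE, against 10.10, 10.15 and 10.27 in MPP and 10.36, 10.11 and 9.92 in HSC (-0.84 ± 0.15 over HSC, limma adjusted p = 0.000494). Ndufc1, Ndufa13, Ndufa8 and Ndufb8, of the membrane arm, fell by 0.99, 0.78, 0.71 and 0.70 over HSC and by 0.82, 0.66, 0.83 and 0.78 over MPP. The core gene Ndufs3 fell below MPP (-0.94 ± 0.15, adjusted p = 0.000167) and differed from HSC by -0.37, which was not called. Ndufa4 fell below MPP by more (-1.13 ± 0.16, adjusted p = 4.27e-05) than below HSC (-0.45). In all, 12 of the 36 complex I genes rose and 6 fell over HSC, and 10 rose and 7 fell over MPP.

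Of 5 genes of the catalytic head and central stalk of ATP synthase, 2 fell in PreMegE over HSC and the same 2, Atp5b and Atp5a1, over MPP, and the other 3 were not called. Atp5b, the beta subunit that carries the catalytic sites, was at 10.33, 10.65, 11.01 and 11.04 in PreMegE, against 11.68, 11.93 and 11.91 in MPP and 11.58, 11.34 and 11.65 in HSC. All PreMegE arrays lay below all MPP and HSC arrays (-0.77 ± 0.19 over HSC, limma adjusted p = 0.00517, and -1.08 ± 0.19 over MPP, adjusted p = 0.000275). Atp5a1, the alpha subunit, was at 11.99, 12.10, 12.44 and 12.27 in PreMegE, against 12.90, 13.09 and 12.98 in MPP and 13.14, 13.04 and 13.01 in HSC (-0.86 ± 0.14 over HSC, adjusted p = 0.000194). The gamma subunit gene Atp5c1 was not called in any comparison, and of the peripheral stalk Atp5o fell (-0.76 over HSC and -0.68 over MPP) while Atp5pb rose over HSC (0.67).

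In complex III the calls in PreMegE went both ways, with 2 of 9 genes higher and 1 lower over HSC and 2 higher and 4 lower over MPP, and in complex II Sdhb is the 1 gene given a direction. Sdhb rose over HSC (0.66 ± 0.15, limma adjusted p = 0.00362) and differed from MPP by -0.06 (not called), whereas Sdhd gave -0.66 ± 0.14 against MPP on its brightest probe set (adjusted p = 0.00168) and 0.90 on the next (adjusted p = 0.000653), so no direction is given for it there. Uqcrfs1 and Uqcrc1 fell below MPP by 0.82 and 0.77, and Uqcrc2 rose by 0.68 over HSC and 0.47 over MPP. The Uqcrc2 call against MPP was lost when any 1 of 10 arrays was left out, and its next brightest probe set gave -0.26 against MPP and 0.24 against HSC, neither called. Sdha fell by 0.45 over HSC and 0.53 over MPP on its brightest probe set, but its next brightest probe set rose by 0.37 over HSC (adjusted p = 0.0349) and 0.49 over MPP (adjusted p = 0.00553), so no direction is given for Sdha.

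Of the assembly factors, 3 of 12 rose over HSC and 2 over MPP, and 0 fell in limma in either comparison (0 also at an unadjusted p under 0.05). Ndufaf6 was at 6.92, 6.72, 6.21 and 7.15 in PreMegE against 5.59, 5.32 and 5.56 in HSC (1.26 ± 0.22, adjusted p = 0.000445). Ndufaf2, a complex I chaperone, rose by 1.10 over HSC and 0.76 over MPP, and Ndufaf1 by 0.56 over MPP. Without HSC replicates 2 and 3, which leaves 1 HSC array, the median difference over HSC was 0.12. Fewer genes were then called over HSC, both among the 95 and among all genes. The calls of Atp5b, Ndufa13, Atp5g1 and Sdhb were among those lost. Centring each array on its median over genes moved the median of all genes to 0.21 over HSC and over MPP. The split of calls among the 95 moved to 41 higher and 9 lower over HSC and 27 higher and 15 lower over MPP. Among all genes, 67.1% and 63.3% of the calls were then higher.

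**Figure D3:**
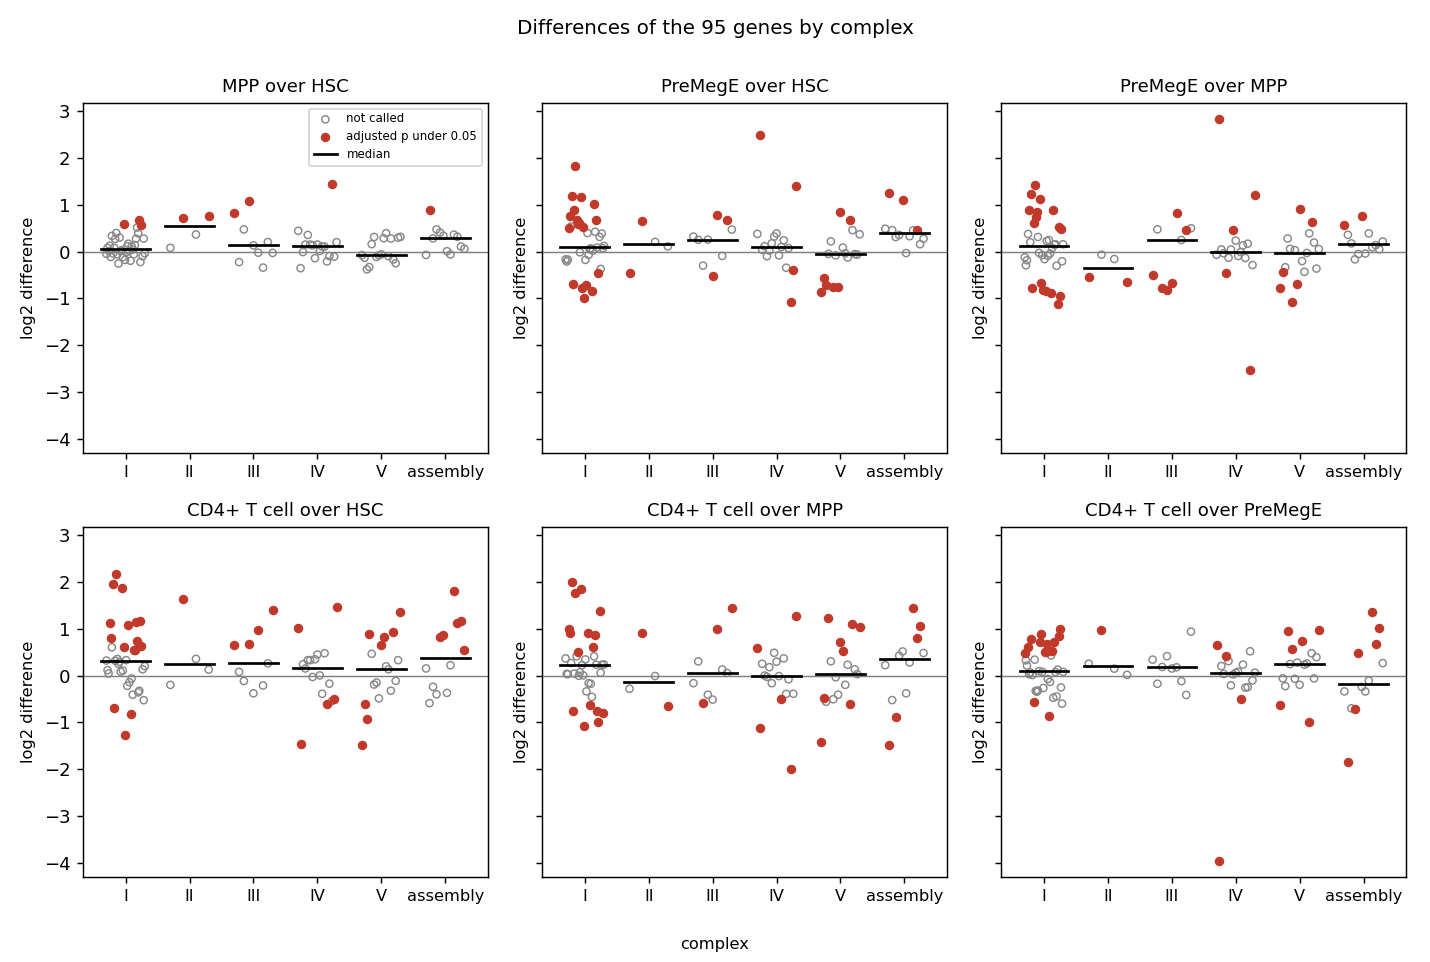
Log2 difference of each of the 95 genes in the 6 comparisons, by complex; filled red points were called (adjusted p under 0.05, limma), open points were not, and the black bar is the median of the complex. MPP over HSC has the narrowest spread and no called gene below 0, and the comparisons with PreMegE and CD4+ T cells have called genes on both sides of 0, with Cox6b2 the outermost point at 2.49, 2.84 and -3.96 in the comparisons that include PreMegE.

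CD4+ T cells had the most genes called as higher. Over HSC 31 of the 95 rose and 9 fell, where 37.8% of all genes were called, 17.0% higher and 20.8% lower. Over MPP 23 rose and 16 fell, where 35.5% of all genes were called, 15.5% higher and 20.0% lower. Over PreMegE 23 rose and 8 fell, where 33.1% of all genes were called, 16.3% higher and 16.8% lower. The members called made up 42.1%, 41.1% and 32.6%, near these backgrounds, and the median differences were 0.24, 0.07 and 0.10, against -0.06, -0.02 and -0.06 for all genes. With 1 array left out the median over MPP was 0.15, 0.046 and 0.12 (MPP replicates 1, 2 and 3). The median over PreMegE was 0.15 without PreMegE replicate 1, 0.056 without PreMegE replicate 3 and 0.14 without CD4+ T cell replicate 2.

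The 3 genes with the largest rises over HSC, Ndufa6, Ndufs5 and Ndufa7, were of complex I, and all 3 were also called as higher in PreMegE over HSC. Ndufa6 was at 9.70 and 9.99 in CD4+ T cells (2.17 ± 0.20 over HSC, limma adjusted p = 3.71e-07), within 0.34 of its PreMegE mean. Ndufs5 was at 6.55 and 5.97, above every array of PreMegE, MPP and HSC (1.96 ± 0.24 over HSC, adjusted p = 6.23e-06, and 0.78 ± 0.23 over PreMegE, adjusted p = 0.0138). Ndufa7 was at 9.19 and 8.95 in CD4+ T cells, against 8.79, 8.53, 7.71 and 8.38 in PreMegE, 7.44, 7.005 and 7.23 in MPP and 7.21, 7.51 and 6.86 in HSC. Its order of levels thus ran CD4+ T cell, PreMegE, then MPP and HSC, but the difference from HSC was 1.88 on this probe set and 0.51 (adjusted p = 0.182) on its next brightest one.

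The assembly factors Ndufaf5 and Ndufaf3, which act on complex I, were highest in CD4+ T cells. Ndufaf5 was at 7.34 and 7.15 in CD4+ T cells, against 5.74, 6.20, 5.32 and 6.28 in PreMegE, 5.89, 5.71 and 5.77 in MPP and 5.46, 5.31 and 5.50 in HSC, with no overlap (1.82 ± 0.24 over HSC, limma adjusted p = 1.26e-05). Ndufaf3 was at 6.96 and 6.69, above all other arrays (1.17 ± 0.21 over HSC, adjusted p = 0.000295). Ndufaf6 went the other way, at 5.33 and 4.48 in CD4+ T cells, and fell by 1.85 ± 0.25 on the log2 scale relative to PreMegE (adjusted p = 2.3e-05) and by 1.49 ± 0.27 relative to MPP (adjusted p = 0.000309). Ndufaf4 also fell over MPP and PreMegE, by 0.88 and 0.71.

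Sdhb set CD4+ T cells and HSC furthest apart within complex II. It was at 10.35 and 10.31 in CD4+ T cells, against 9.09, 9.37, 9.56 and 9.38 in PreMegE, 9.54, 9.20 and 9.50 in MPP and 8.81, 8.47 and 8.79 in HSC. Its levels were called as higher in CD4+ T cells than in each other population and as lower in HSC than in each other, while PreMegE and MPP did not differ by the test (1.64 ± 0.18 for CD4+ T cells over HSC, limma adjusted p = 2.4e-06). Sdhaf2, which helps attach the flavin of complex II, was at 7.92 and 8.10 in CD4+ T cells, above all other arrays (1.12 ± 0.17 over HSC, adjusted p = 7.16e-05). Sdhd fell below MPP by 0.64.

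In complex III, Uqcrh, the hinge protein gene, rose by 1.41 ± 0.38 over HSC (limma, adjusted p = 0.00687) and 1.44 ± 0.38 over MPP (adjusted p = 0.00631), at 10.55 and 10.40 against 8.87 to 9.25 in both. Uqcrfs1 and Cyc1 rose over HSC by 0.67 and 0.66, and Uqcrc1 fell below MPP by 0.59. In complex IV, Cox4i1, the common isoform of subunit IV, was at 12.27 and 11.98 in CD4+ T cells, against 11.34, 11.62, 11.50 and 11.45 in PreMegE, 11.51, 11.52 and 11.61 in MPP and 11.32, 11.01 and 10.97 in HSC (1.03 ± 0.17 over HSC, adjusted p = 0.000132). All CD4+ T cell arrays lay above all other arrays for this gene.

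ATP synthase genes in CD4+ T cells went both ways. The alpha subunit gene Atp5a1 was at 11.60 and 11.54, below every other array (-1.49 ± 0.17 over HSC, limma adjusted p = 2.33e-06). Its next brightest probe set gave 0.65 over PreMegE (adjusted p = 0.0214) where the brightest gave -0.63, so the order of CD4+ T cells and PreMegE is not settled for this gene. Of 5 small subunits of the membrane part, 2 rose and 1 fell over HSC: Atp5j2 rose by 1.35 ± 0.20 over HSC (adjusted p = 4.2e-05), with arrays at 11.60 and 11.27 against 9.96 to 10.21 in HSC, Atp5l rose by 0.82 and Atp5mpl fell by 0.94. Atp5e, the epsilon subunit, rose by 0.90 over HSC, 1.22 over MPP and 0.94 over PreMegE.

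Counting genes called in the same direction against each of the other 3 populations, CD4+ T cells were higher for 15 of the 95 (9.73% of all genes met that rule) and lower for 3 (10.5%). The 15 were Atp5e, Atp5j2, Atp5l, Cox4i1, Ndufa2, Ndufa3, Ndufa7, Ndufaf3, Ndufaf5, Ndufb10, Ndufs1, Ndufs5, Ndufv3, Sdhaf2 and Sdhb. Of these, Ndufa7 met the rule on its brightest probe set and not on its next brightest. The 3 were Cox6b2 and, on their brightest probe sets only, Atp5a1 and Ndufc2. PreMegE was higher for Cox6b2 and Ndufb11 (3.85% of all genes) and lower for Atp5b, Ndufa13 and Ndufa8 (4.90%). MPP was higher for Cox7c, Ndufa4 and, on its brightest probe set, Sdhd (2.67%), and HSC was lower for Ndufs8 and Sdhb (1.08%), which neither gene was without HSC replicates 2 and 3. In limma MPP was lower than all others for 0 of the 95 (0.956% of all genes) and HSC higher for 0 (1.75%), and both counts were also 0 at an unadjusted p under 0.05. Among the 15, Ndufs1, a core subunit at the entry of electrons from NADH, was at 9.41 and 9.37 in CD4+ T cells, against 8.32 to 8.89 in PreMegE, 8.47 to 8.55 in MPP and 7.98 to 8.54 in HSC (1.15 ± 0.20 over HSC, limma adjusted p = 0.00023).

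Of Ndufv3, a small subunit of the flavoprotein part, the CD4+ T cell arrays were at 10.33 and 10.14, against 9.19 to 9.56 in PreMegE, 8.79 to 8.98 in MPP and 8.93 to 9.25 in HSC (1.38 ± 0.17 over MPP, limma adjusted p = 9.41e-06). Ndufc2 fell by 0.82 over HSC on its brightest probe set, and its next brightest gave 0.68 (adjusted p = 0.0277), so no direction is given for it. Without HSC replicates 2 and 3, fewer of the 95 were called over HSC, and the median difference was 0.18. By complex, the median went from 0.31 to 0.28 in I, 0.24 to 0.19 in II and 0.26 to 0.50 in III. In IV it went from 0.15 to 0.002 and in V from 0.13 to 0.038. Differences of single genes among the 95 in CD4+ T cells over HSC are given with all HSC arrays only. Without CD4+ T cell replicate 2, which leaves 1 array, fewer genes were called over PreMegE, among the 95 and among all genes. Centring the arrays on their median over genes moved the median of all genes to 0.26 over HSC and over MPP. The split of calls among the 95 moved to 52 higher and 5 lower over HSC and 40 higher and 8 lower over MPP. Among all genes, 67.8% and 65.8% of the calls were then higher. Over PreMegE the split was 14 higher and 10 lower with quantile normalisation, where 45.1% of the calls among all genes were higher. Over MPP it was 29 higher and 11 lower with cyclic loess, where 48.5% were higher.

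Complex IV and the proton-carrying ring of ATP synthase are where gene copies of 1 subunit can be set side by side across populations, each against itself. Cox7a2, the common isoform of subunit VIIa, was at 11.44 and 11.44 in CD4+ T cells and 11.60, 11.52, 11.06 and 11.31 in PreMegE, against 10.38, 9.84 and 10.28 in MPP and 10.09, 9.76 and 10.05 in HSC. The first pair of populations did not overlap with the other pair (1.47 ± 0.20 for CD4+ T cells over HSC, limma adjusted p = 2.62e-05, and 1.41 ± 0.17 for PreMegE over HSC, adjusted p = 1.44e-05), and its next brightest probe set gave 1.61 and 1.55. Cox7a1, the heart and muscle isoform, was at 2.33 to 3.23 on all 12 arrays and was not called. Of the other isoform families, Cox6a1, Cox6a2, Cox4i2, Cox7b2 and Cox8a were not called in any comparison. Cox8b, known from heart and muscle, rose by 0.46 in PreMegE over MPP (adjusted p = 0.0321) at levels of 3.25 to 3.98, and Cox8c, known from testis, fell by 0.60 in CD4+ T cells over HSC (adjusted p = 0.0402), a call lost in 11 of the 23 other settings.

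Cox7c, a small subunit with no second gene among the 95, was highest in MPP, and its CD4+ T cell and PreMegE arrays overlapped with those of HSC. Its arrays were at 6.55 and 5.89 in CD4+ T cells, 5.11, 6.36, 6.10 and 5.24 in PreMegE, 8.35, 8.35 and 7.96 in MPP and 7.85, 5.89 and 6.56 in HSC. All MPP arrays lay above all arrays of the other populations (-2.52 ± 0.38 for PreMegE over MPP, limma adjusted p = 9.23e-05, and -2.00 ± 0.46 for CD4+ T cells over MPP, adjusted p = 0.0025), and the HSC arrays had the largest SD of any gene in that population among the 95, 0.99.

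The ring that turns as protons pass is built of subunit c, which 3 genes encode with the same mature protein. Atp5g1 was at 8.15 and 8.28 in CD4+ T cells and 8.81, 8.41, 8.25 and 8.19 in PreMegE, against 7.60, 7.29 and 7.64 in MPP and 7.79, 7.55 and 7.37 in HSC. Atp5g2 was at 9.22 and 9.93 in CD4+ T cells and 9.22, 9.17, 8.96 and 9.02 in PreMegE, against 8.38, 8.54 and 8.49 in MPP and 8.79, 8.86 and 8.26 in HSC. Atp5g3 ran the opposite way, at 11.95 and 12.13 in CD4+ T cells and 12.12, 12.04, 12.11 and 12.11 in PreMegE, against 12.52, 12.52 and 12.52 in MPP and 12.76, 12.64 and 12.55 in HSC.

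For each of the 3 genes the CD4+ T cell and PreMegE arrays did not overlap with the MPP and HSC arrays. In PreMegE over MPP the differences were 0.91 ± 0.17 for Atp5g1 (limma, adjusted p = 0.000607), 0.63 ± 0.18 for Atp5g2 (adjusted p = 0.0153) and -0.42 ± 0.12 for Atp5g3 (adjusted p = 0.0137). In CD4+ T cells over HSC they were 0.65, 0.94 and -0.61, all called. Over HSC in PreMegE, Atp5g1 rose by 0.85 and Atp5g3 fell by 0.55, and Atp5g2 was not called. The next brightest probe sets of Atp5g1 and Atp5g2 were dim (mean 2.99 and 3.49) and gave no calls, and the fall of Atp5g3 lost its call over MPP and, in CD4+ T cells, over HSC when arrays were centred on their median.

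**Figure D4:**
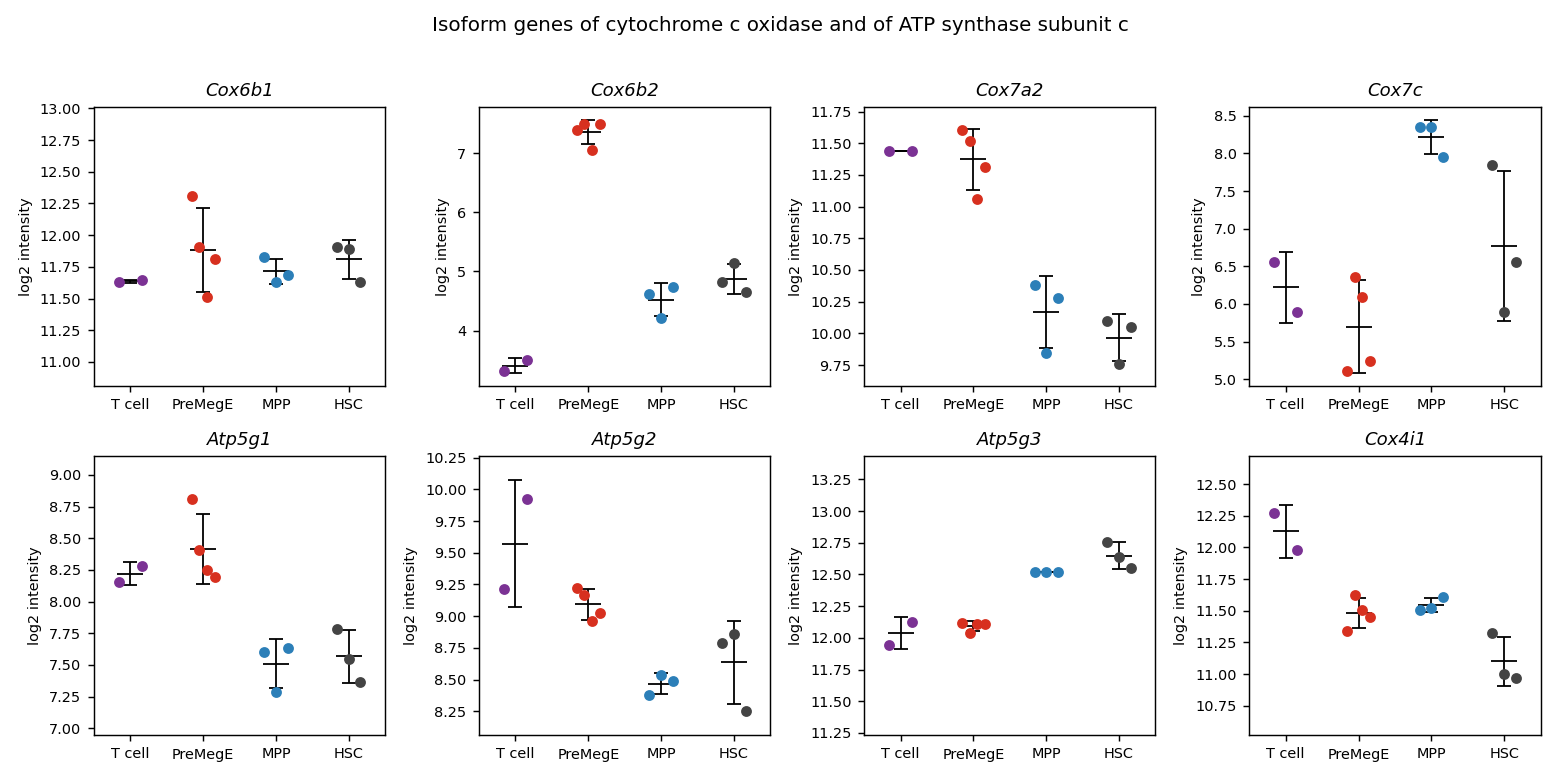
Log2 intensity of isoform genes of complex IV and of the 3 subunit c genes on each array, with the mean and SD of each population (2 CD4+ T cell, 4 PreMegE, 3 MPP and 3 HSC arrays). Cox6b2 is high in PreMegE alone while Cox6b1 overlaps in all populations, and Atp5g1 and Atp5g2 are high where Atp5g3 is low.

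Probe sets of the same gene often disagreed. Counts on the next brightest probe set cannot show how far this bears on the counts, because genes with 1 probe set keep it there. Of the 53 genes with more than 1 probe set, 23 were called in PreMegE over HSC on the brightest, and the next brightest was called in the same direction for 10 and in the opposite direction for 1. In CD4+ T cells over HSC these numbers were 20, 13 and 1, and in MPP over HSC 3, 1 and 0. In PreMegE over MPP they were 21, 9 and 2, in CD4+ T cells over MPP 21, 11 and 0, and over PreMegE 11, 4 and 1. Cox7a2, Ndufv2 in PreMegE (1.03 and 0.97 over HSC) and Atp5j2 in CD4+ T cells (1.35 and 1.69 over HSC) were called on both. Of the 95 brightest probe sets, 14 carry the suffix _s_at and 7 the suffix _x_at, which mark probes that can also match other transcripts.

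Promoters of these genes were searched for 3 motifs known from respiratory gene promoters. Windows of 300 bases around the annotated start came from RefSeq (assembly GRCm38.p6), and 83 windows matched 78 of the 95 genes. On either strand, the NRF1 motif, GCGCA and GCGC with any base between them, was in 24.1% of the 83 windows against 4.6% of 32851 promoters of all genes, the ETS motif CCGGAAG in 26.5% against 8.86%, and the YY1 motif AAGATGGC in 12% against 2.75%. These are matches of letters and say nothing of binding. The windows below are those of Ndufa6 and Ndufs5, high in PreMegE and CD4+ T cells, Sdhb, ordered from CD4+ T cells to HSC, and Cox6b2, high in PreMegE, each 5' to 3' with matches in capitals. Ndufa6 holds the NRF1 motif on its minus strand at 24 to 33 bases after the start, and Ndufs5 the same motif at -98 to -89. Sdhb holds the ETS motif at 7 to 13, while Cox6b2 had no match to the 3 motifs. The window of Uqcrfs1, called in MPP over HSC and not shown, had no match either.
Ndufa6 promoter, chr15:82354242-82354541, minus strand: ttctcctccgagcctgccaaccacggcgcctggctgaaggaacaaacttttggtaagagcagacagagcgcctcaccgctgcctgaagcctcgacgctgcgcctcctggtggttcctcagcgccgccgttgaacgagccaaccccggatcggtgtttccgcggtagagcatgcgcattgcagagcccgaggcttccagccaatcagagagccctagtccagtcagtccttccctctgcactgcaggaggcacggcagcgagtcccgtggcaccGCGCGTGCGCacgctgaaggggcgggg
Ndufs5 promoter, chr4:123718137-123718436, minus strand: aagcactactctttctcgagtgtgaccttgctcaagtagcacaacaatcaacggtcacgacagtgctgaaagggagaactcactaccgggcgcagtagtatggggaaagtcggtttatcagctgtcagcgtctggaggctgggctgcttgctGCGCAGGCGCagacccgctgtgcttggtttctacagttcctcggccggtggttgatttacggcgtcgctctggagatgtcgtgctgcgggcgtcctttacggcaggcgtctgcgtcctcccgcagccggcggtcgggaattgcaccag
Sdhb promoter, chr4:140961021-140961320, plus strand: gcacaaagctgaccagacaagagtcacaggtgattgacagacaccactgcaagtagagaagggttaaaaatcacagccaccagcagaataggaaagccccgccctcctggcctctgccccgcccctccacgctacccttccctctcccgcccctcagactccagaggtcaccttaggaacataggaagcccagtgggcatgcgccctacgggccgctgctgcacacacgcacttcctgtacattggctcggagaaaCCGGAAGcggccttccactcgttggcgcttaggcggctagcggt
Cox6b2 promoter, chr7:4753045-4753344, minus strand: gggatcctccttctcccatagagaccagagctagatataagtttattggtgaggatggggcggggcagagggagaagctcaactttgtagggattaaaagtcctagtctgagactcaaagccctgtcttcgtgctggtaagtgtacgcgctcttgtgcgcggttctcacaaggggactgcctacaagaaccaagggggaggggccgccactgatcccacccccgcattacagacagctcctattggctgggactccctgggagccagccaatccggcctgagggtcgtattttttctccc

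Genes that serve the chain without belonging to it were described from lists drawn up for the purpose. Their counts stand beside the shares of all genes called. Counts without HSC replicates 2 and 3 rest on 1 HSC array and have no such share beside them. In PreMegE over HSC, where 11.9% of all genes rose and 17.0% fell, 10 of 33 further assembly factors rose and 8 fell (4 and 5 without HSC replicates 2 and 3). In CD4+ T cells over HSC, where 17.0% rose and 20.8% fell, 7 rose and 7 fell (6 and 4 without them). Cox17, a copper carrier of complex IV, rose by 1.04 in PreMegE over HSC, a call lost without these replicates (0.72, limma adjusted p = 0.059), and by 1.07 in CD4+ T cells over HSC. Surf1, a complex IV assembly factor, rose by 1.76 in CD4+ T cells over HSC (adjusted p = 2.13e-06). Of 20 genes of electron carriers and coenzyme Q synthesis, 5 rose and 2 fell in PreMegE over HSC (4 and 2 without these replicates), and 4 rose and 5 fell in CD4+ T cells (4 and 4). Coq7, a hydroxylase of coenzyme Q synthesis, fell by 1.54 and 2.00 in these comparisons, and Coq10b, a coenzyme Q binding protein, rose by 1.55 in MPP over HSC.

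In MPP over HSC, where 6.38% of all genes rose and 4.93% fell, 3 of 23 genes of pyruvate oxidation and the citric acid cycle rose and 1 fell (1 and 1 without HSC replicates 2 and 3). Mpc1, part of the mitochondrial pyruvate carrier, rose by 1.08 and Cs, citrate synthase, fell by 0.70, and both remained called without these replicates. In PreMegE over MPP, where 13.5% of all genes rose and 19.5% fell, 4 of the 23 rose and 8 fell, with Pdk1, a kinase that shuts pyruvate dehydrogenase, at -1.70. Of 14 carriers and channels, 0 rose in limma (0 also at an unadjusted p under 0.05) and 7 fell in PreMegE over MPP, among them the aspartate-glutamate carrier Slc25a12 at -2.09. In CD4+ T cells over MPP, where 15.5% of all genes rose and 20.0% fell, 0 of the 14 rose in limma (0 also at an unadjusted p under 0.05) and 7 fell. Among 15 regulators, Pprc1, a coactivator of respiratory genes, rose by 1.58 over HSC and 1.93 over MPP in PreMegE. Nrf1 fell by 1.25 in PreMegE and 1.35 in CD4+ T cells over HSC, and Hif1a rose by 1.69 in CD4+ T cells over HSC. Of 15 genes of mitochondrial DNA maintenance and transcription, 6 rose and 2 fell in PreMegE over HSC (3 and 2 without HSC replicates 2 and 3), and Lonp1, a matrix protease, fell by 1.60. Pprc1, Nrf1, Hif1a, Lonp1, Surf1, Coq7 and Coq10b remained called over HSC without these replicates.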

How the data were processed

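The authors deposited linear intensity values of 45101 probe sets on 12 Affymetrix arrays, which the submitters' processing notes attribute to RMA with no version given. Log2 of the deposited intensities was taken and no further normalisation was applied. Probe sets annotated to 1 gene symbol gave 18193 genes, each by its brightest probe set over all arrays. Groups were compared in limma 3.58.1 (R 4.3.3) with 1 model of 4 group means over all 12 arrays, two-sided, with Benjamini-Hochberg adjustment over all 18193 genes and calls at an adjusted p under 0.05. The model was tested on simulated data. The number of arrays limits the precision, and array values carry no read depth. The 95 genes, the further gene lists and the motifs were chosen with earlier results of these data known.

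Genes were named where they were called, did not overlap between groups and were among the 6 largest differences a direction in a comparison, where they belong to the catalytic core, an isoform family or subunit c, or where they were called against all 3 other populations. Ndufa5, Ndufa12, Ndufaf1 and Ndufaf2 were named after their values were seen. Replicate numbers did not pair the samples: of 15 same-numbered pairs, 3 had deviations correlated over 0.1, with a range of -0.12 to 0.41. The 23 alternatives covered normalisation, dim genes, the choice of probe set, the members, the arrays fitted, a replicate block and each array left out, and 1 of them, without HSC replicates 2 and 3, was chosen after seeing the data.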

Additional observations from a re-analysis of the deposited data

Results flagged for a closer look

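In 2 of the 32 genes examined this way, 1 of the 4 PreMegE arrays lay far from the other 3, by a gap over the whole range above Dixon's critical value for 4 samples. For Uqcrfs1, the Rieske protein of complex III, replicate 1 was at 9.51 and the others at 9.92, 9.98 and 9.98, a gap of 0.87 of the range. For Ndufs3, a core subunit of complex I, replicate 4 was at 9.10 and the others at 8.67, 8.68 and 8.66, a gap of 0.965 of the range. Chance alone marks about 1 in 20 such groups.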

How the results depend on the processing

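Of 153 gene and comparison pairs named, 75 were called under every setting that could be run. Their 3416 values under alternatives include some that could not change, so the share that held is no measure of stability. Keeping subunits only left all 136 of its values the same, and genes with 1 probe set kept it under every choice of probe set. Leaving out an array of a population outside the comparison left the difference itself unchanged, and only the call could move. Of the 3416, 3077 kept direction and call, 321 kept direction but lost the call and 18 changed sign. All 18 came with another choice of probe set. With the next brightest probe set these were, for PreMegE over HSC, Sdha 0.37, for PreMegE over MPP, Sdha 0.49, Sdhd 0.90, Ndufs7 -0.029 and Uqcrc2 -0.26, for CD4+ T cells over HSC, Atp5g1 -0.15, Atp5g2 -0.21 and Ndufc2 0.68, over MPP, Atp5g1 -0.19, Atp5g2 -0.079 and Ndufc2 0.56, and over PreMegE, Atp5a1 0.65 and Atp5pb 0.019. With the mean of all probe sets they were Sdha 0.10 and 0.048 for PreMegE over HSC and MPP, Sdhd 0.12 over MPP, and Ndufc2 0.24 and 0.11 for CD4+ T cells over HSC and MPP. The count for MPP over HSC was 5 with quantile normalisation, where 2187 of all 18193 genes were called, against 2058 without it. With single arrays left out it was 4 to 9. Without HSC replicates 2 and 3, fewer genes were called for MPP and PreMegE over HSC, among the 95 and among all genes. For CD4+ T cells over PreMegE it was 17 to 32 with single arrays left out, 17 without CD4+ T cell replicate 2. The median of the 95 for MPP over HSC was 0.019 with quantile normalisation. Centring moved it to 0.38 and 0.23 for PreMegE over HSC and MPP, and to 0.56, 0.35 and 0.19 for CD4+ T cells over HSC, MPP and PreMegE. With cyclic loess it was 0.34 and 0.24 for CD4+ T cells over HSC and MPP, with the next brightest probe set 0.23 over MPP and 0.19 over PreMegE, and with the mean of probe sets 0.22 over MPP. For PreMegE over MPP it ran from -0.04 without MPP replicate 2 to 0.07. With the replicate number as a block the counts were 10, 32, 37, 41, 38 and 23 for MPP over HSC, PreMegE over HSC and MPP, and CD4+ T cells over HSC, MPP and PreMegE. Matching counts over all genes are not given for the block, so these are not read as particular to the set. Apart from the choice of array or probe set, the cause of these shifts was not tested.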
